A study of Homo sapiens with 6 samples.

Results

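Matrix metalloproteinases (MMPs) and the tissue inhibitors of metalloproteinases (TIMPs) were followed in SK-N-BE(2) cells, an established human neuroblastoma line, with and without knockdown of Prp19. The 10 genes were taken as a named list: the secreted gelatinases MMP2 and MMP9, the membrane-type proteases MMP14, MMP15, MMP16 and MMP24, and the inhibitors TIMP1, TIMP2, TIMP3 and TIMP4. They are 10 of the 58302 genes listed in each file, and 7 of them reached 1 FPKM on average (fragments per kilobase of exon, scaled to the mapped fragments of the sample). Prp19, encoded by PRPF19, is a ubiquitin ligase and a core factor of the spliceosome. Total RNA was sequenced from 3 samples transfected with a control siRNA (NC) and 3 transfected with siRNA against PRPF19 (siPrp19), all of the same line and, per the labels, transfected for 72 h, while the study's methods give a shorter time. The study asked whether Prp19 acts on the invasive behaviour of such cells, in which these proteases and inhibitors take part. All cells came from a single cultured line, and the knockdown was partial.

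MMPs are zinc-dependent proteases that are made as inactive proenzymes and cut collagens, gelatin and other components of the extracellular matrix. TIMPs bind the active site of MMPs and block it, and TIMP2 also has a part in activation, because a complex of MMP14 and TIMP2 at the cell surface holds proMMP2 while a free MMP14 molecule cleaves it. In neuroblastoma, MMP2 and MMP9 are known mainly from studies of tumour invasion, and much of the MMP9 in tumours comes from stromal and blood-derived cells.

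The coding stretches below show, for 9 of the 10 members, a part of the gene that carries this chemistry: the zinc-binding site of the proteases, and the first codons of the mature inhibitors, whose cysteine end enters the protease active site. The stretches were found by translating each coding sequence of GENCODE 29 (GRCh38), and each is 27 bases written 5′ to 3′ on the coding strand. In the proteases the capitals mark the codons of the first pair of zinc-binding histidines and of the glutamate between them, while the last zinc-binding histidine of the site lies past the stretch. The stretch of MMP16 is not shown. In the inhibitors they mark the codons of the first pair of cysteines.
MMP2: CACGAGtttggcCACgccatggggctg
MMP9: CATGAGttcggcCACgcgctgggctta
MMP14: CACGAGctgggcCATgccctggggctc
MMP15: CATGAGctgggcCACgcgctggggctg
MMP24: CATGAGctgggcCACgcgctgggactg
TIMP1: TGCaccTGTgtcccaccccacccacag
TIMP2: TGCagcTGCtccccggtgcacccgcaa
TIMP3: TGCacaTGCtcgcccagccacccccag
TIMP4: TGCagcTGCgccccggcgcaccctcag

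The gelatinase stretches lie in exon 8 of 13 in both genes, at chr16:55491827-55491853 (plus strand) for MMP2 and chr20:46012453-46012479 (plus strand) for MMP9. Those of the membrane-type proteases shown lie in exon 5, at chr14:22843283-22843309 (plus strand) for MMP14, chr16:58040563-58040589 (plus strand) for MMP15 and chr20:35263817-35263843 (plus strand) for MMP24. MMP15 and MMP24 share 26 of the 27 bases, MMP14 and MMP15 share 23, and MMP2 and MMP9 share 20. The inhibitor stretches lie at chrX:47583485-47583511 (plus strand) in exon 2 of TIMP1 and in exon 1 of the others, at chr17:78924984-78925010 (minus strand) for TIMP2, chr22:32802071-32802097 (plus strand) for TIMP3 and chr3:12158727-12158753 (minus strand) for TIMP4. TIMP2 and TIMP4 share 23 of 27 bases, and TIMP1 and TIMP2 share 17, the fewest of any pair of inhibitors.

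PRPF19 itself stood at 57.0 ± 6.83 FPKM in NC and 27.9 ± 5.91 in siPrp19 (SD, n = 3), 49.0% of NC, with no overlap between the groups. Read numbers recovered from the FPKM values put 19058781 to 24181789 reads on genes in each sample. An NC and a siPrp19 sample that carried the same number departed from their group means alike, so the groups were also compared within the 3 same-numbered pairs. All 10 adrenergic neuroblast markers examined averaged 1 FPKM or more, with a summed level of 1012 to 1365 FPKM in NC and 1058 to 1407 in siPrp19, and 6 of 8 mesenchymal or fibroblast markers did, at 177 to 194 and 162 to 186 FPKM. None of 7 macrophage and neutrophil markers and none of 4 endothelial markers reached a mean of 1 FPKM. As in any bulk sample, fewer cells that express a gene cannot be told apart from less of its RNA per cell.

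The members covered a wide range of levels, and both ends of it held proteases and inhibitors. MMP2 was the highest, with a mean over the 6 samples of 120.1 FPKM, higher than 99.4% of the genes with any reads. TIMP2 followed with 71.3 FPKM, then MMP14 with 44.0 and TIMP1 with 33.5, so the members of the proMMP2 activation complex were the 3 most abundant. MMP24 had 10.9 FPKM, MMP16 6.10 and MMP15 2.91. The lowest were TIMP3 with 0.910, MMP9 with 0.389 and TIMP4 with 0.205 FPKM. In this order MMP14 and TIMP1, MMP15 and TIMP3, TIMP3 and MMP9, and MMP9 and TIMP4 overlapped in their sample values, while the other neighbours did not. Rescaling to TPM, which fixes the total of each sample, left the order as it was.

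**Figure D1:**
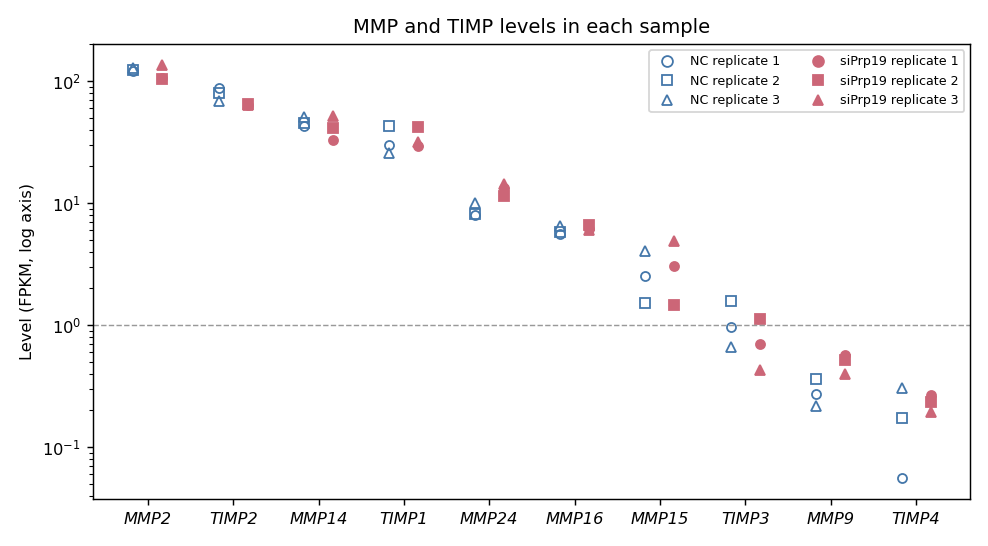
Level of the 10 members in each sample, in FPKM on a log10 axis, with open points for NC, filled points for siPrp19, a marker shape for each replicate number and a dashed line at 1 FPKM. MMP2 lies near 120.1 FPKM and TIMP4 near 0.205 FPKM, and only MMP24, MMP9 and TIMP2 have groups that do not overlap.

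The comparison of siPrp19 with NC asked which members move with loss of Prp19. MMP24 rose and TIMP2 fell when the recovered reads were compared within the same-numbered pairs (limma voom with the replicate number as a block, Benjamini-Hochberg adjustment over all genes). In the test planned first, limma on log2(FPKM + 0.1) without pairs, no member passed an adjusted p of 0.05, and neither did any other of the 14462 genes tested (0.0% called). At an unadjusted p under 0.05 that test held 225 genes (1.56%), of which MMP24 was the 1 member. With the replicate block limma again called 0.0% of genes, while 15.7% had an unadjusted p under 0.05, among them MMP24 and TIMP2. The paired voom fit called 947 of 13705 genes (6.91%), 2.61% higher and 4.3% lower, and 2 of the 7 members in it. That count of genes was 261 without replicate 1 of both groups, 618 without replicate 2 and 1244 without replicate 3, with 1, 2 and 4 members among them. These smaller fits have few samples for the terms fitted, so their p-values rest largely on variance shared across genes. They are therefore no check of stability. An exact permutation test of 3 samples against 3 cannot go below p = 0.10, and MMP24, TIMP2 and MMP9, whose groups did not overlap, reached that value. For comparison, 5.61% of the tested genes had groups that did not overlap in either direction, 19.2% were higher in all 3 pairs and 21.3% were lower in all 3.

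**Figure D2:**
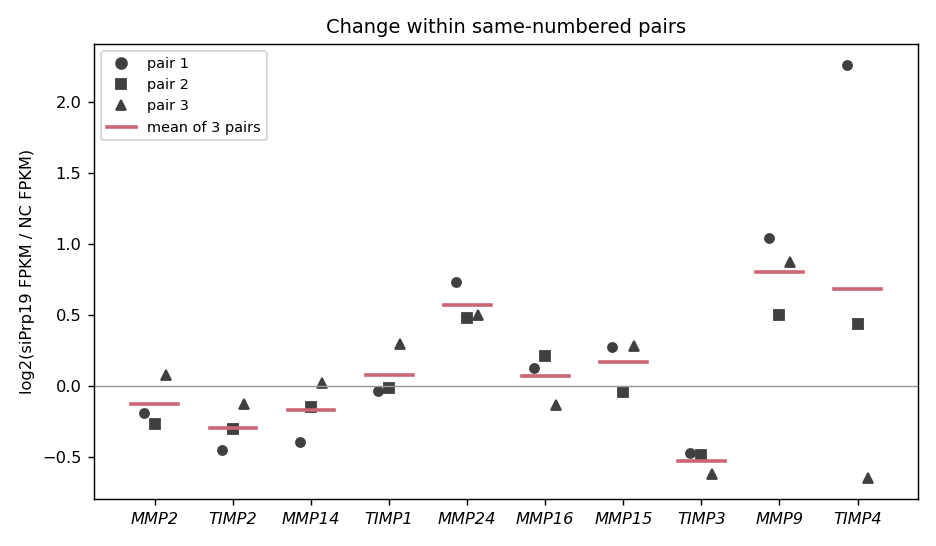
Change from NC to siPrp19 of the 10 members on the log2 scale, as the ratio of FPKM values, with 1 point for each same-numbered pair and a bar at the mean of the 3 pairs. MMP24 and MMP9 lie above 0 in all 3 pairs, and TIMP2 and TIMP3 lie below 0 in all 3.

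Among the secreted proteases, MMP2 (chromosome 16, 55389700 to 55506691, plus strand) encodes gelatinase A, which cuts gelatin and type IV collagen. It had 122, 124 and 129 FPKM in NC replicates 1, 2 and 3, and 107, 103 and 136 FPKM in siPrp19 replicates 1, 2 and 3. The siPrp19 samples held both the lowest and the highest value, so the groups overlapped. Their means were 124.9 ± 3.62 and 115.4 ± 18.1 FPKM (SD, n = 3), a log2 fold change of -0.13 with a standard error of 0.15 in limma. The replicate block gave a standard error of 0.08 and, in limma, an adjusted p of 0.478. The level in siPrp19 was 87.6% of NC in pair 1, 83.1% in pair 2 and 106% in pair 3, so pair 3 stood apart in direction from the others. Paired voom without replicate 3 of both groups gave a log2 fold change of -0.23 and a limma adjusted p of 0.00211 (5.9% of genes were called lower in that fit), and with all pairs an adjusted p of 0.209.

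MMP9 (chromosome 20, 46008908 to 46016561, plus strand) encodes gelatinase B, which the study followed as a protein in these cells. The study reported less of this protein after Prp19 knockdown. The values here are of RNA, a different measure, and do not test that report. Its RNA was near 0 in every sample, with 0.275, 0.365 and 0.216 FPKM in NC and 0.565, 0.515 and 0.397 FPKM in siPrp19. These values stood for 14, 15 and 10 reads in NC and 30, 25 and 23 reads in siPrp19. Every siPrp19 sample was above every NC sample, which was so for 2.8% of the genes with any reads, and 12.4% of them were higher in all 3 pairs. The mean was 0.285 ± 0.0747 FPKM in NC and 0.492 ± 0.0864 in siPrp19 (SD, n = 3), 173% of NC, and the pairs stood at 206%, 141% and 183%. On the log2(FPKM + 0.1) scale, fitted over all genes with any reads, the change was 0.63 with a standard error of 0.36 and an adjusted p of 0.999 in limma. With a pseudocount of 1 it was 0.22. Voom on genes with a mean of at least 10 reads, within pairs, gave 0.78 with a standard error of 0.36 and a limma adjusted p of 0.222. At this depth the difference did not pass the test.

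MMP9 shares 430 bases, 18.4% of its exons, with the antisense gene SLC12A5-AS1 on the opposite strand. The counting is not stated to have used strand, so how reads from this stretch were assigned is not known. SLC12A5-AS1 itself had 7, 3 and 6 reads in NC and 11, 6 and 15 reads in siPrp19, a log2 fold change of 0.47 with a standard error of 0.37. The summed level of the 7 macrophage and neutrophil markers, cell types that store or secrete MMP9, was 1.10 to 1.42 FPKM in NC and 1.25 to 1.74 FPKM in siPrp19, and their part in the MMP9 values was not tested.

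Of the membrane-type proteases, MMP14 (chromosome 14, 22836557 to 22849027, plus strand) encodes MT1-MMP, the activator of proMMP2. It had 42.9, 45.5 and 50.4 FPKM in NC and 32.6, 41.1 and 51.2 FPKM in siPrp19. Replicate 3 was the highest in both groups, and the siPrp19 range contained the NC range. The log2 fold change was -0.17, with a standard error of 0.18 in limma and 0.09 with the block. Its pairs stood at 76.1%, 90.5% and 102% of NC, and the paired voom fit gave a limma adjusted p of 0.106 with all pairs. Without replicate 3 of both groups that fit gave -0.27 and an adjusted p of 5.81e-04 (limma).

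MMP15 (chromosome 16, 58025566 to 58046901, plus strand) encodes MT2-MMP. It had 2.52, 1.504 and 4.03 FPKM in NC and 3.05, 1.46 and 4.91 FPKM in siPrp19, from 117 to 538 reads. Replicate 3 was the highest and replicate 2 the lowest in both groups, and the range between replicate numbers, 1.52 on the log2 scale over the mean of both groups, was far above the log2 fold change of 0.17 (limma standard error 0.51, with the block 0.11). The test was not passed with the block either (limma adjusted p = 0.499).

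MMP16 (chromosome 8, 88032009 to 88328025, minus strand) encodes MT3-MMP, a protease known from nervous tissue. It had 5.60, 5.74 and 6.54 FPKM in NC and 6.12, 6.65 and 5.98 FPKM in siPrp19. The groups overlapped, and pairs 1 and 2 lay above NC while pair 3 lay below. The log2 fold change was 0.07 with a standard error of 0.12 (limma).

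MMP24 (chromosome 20, 35226654 to 35277000, plus strand) encodes MT5-MMP, a membrane protease of neurons that cleaves N-cadherin. It had 7.98, 8.21 and 10.1 FPKM in NC and 13.2, 11.5 and 14.3 FPKM in siPrp19, from 768, 638 and 881 reads and from 1328, 1051 and 1563 reads. Every siPrp19 sample was above every NC sample, as in 2.77% of the tested genes. The means were 8.76 ± 1.16 and 13.0 ± 1.43 FPKM (SD, n = 3), 148% of NC, and the pairs stood at 166%, 140% and 141%. The log2 fold change was 0.57 with a standard error of 0.15 and an unadjusted p of 0.00735 in limma, which did not pass the adjustment over 14462 genes (adjusted p = 0.9999). The replicate block gave a standard error of 0.07 and, in limma, an adjusted p of 0.190. In the paired voom fit the adjusted p was 1.04e-05. With any replicate number left out of both groups the log2 fold change was 0.49 to 0.61. The adjusted p stayed under 0.05 in these smaller fits (limma voom), which are no check of stability. MMP24 also passed the paired limma fit of the 7913 genes that averaged 5 FPKM or more, in which 1.57% of genes were called, 0.43% as higher (adjusted p = 0.0306).

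MMP24 lies within the span of MMP24OS on the opposite strand and shares 799 bases, 18.1% of its exons, with it. MMP24OS had 4.71, 4.76 and 3.13 FPKM in NC and 5.06, 4.31 and 3.91 FPKM in siPrp19. The groups of MMP24OS overlapped, with a log2 fold change of 0.09 and a standard error of 0.21 in limma. AL121753.2, also on the opposite strand, shares 162 bases, 3.67% of the MMP24 exons. It had 33, 44 and 23 reads in NC and 54, 73 and 40 reads in siPrp19, at 157%, 141% and 139% of NC in the 3 pairs. Its groups overlapped, and it did not pass the paired voom fit (log2 fold change 0.53, standard error 0.25, limma adjusted p = 0.233). How far reads from the shared bases entered the MMP24 values was not tested.

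Of the inhibitors, TIMP1 (chromosome X, 47582313 to 47586789, plus strand) encodes a broad MMP inhibitor that also binds proMMP9. It had 29.9, 42.6 and 25.8 FPKM in NC and 29.1, 42.1 and 31.7 FPKM in siPrp19. Replicate 2 was the highest in both groups, and the pairs stood at 97.4%, 98.9% and 123% of NC. The log2 fold change was 0.08, with a standard error of 0.23 in limma and 0.08 with the block.

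TIMP2 (chromosome 17, 78852977 to 78925387, minus strand) encodes the inhibitor that bridges MMP14 and proMMP2. It had 87.6, 79.8 and 68.7 FPKM in NC and 64.0, 64.8 and 63.0 FPKM in siPrp19, from 7586 to 10760 reads. Every siPrp19 sample was below every NC sample, as in 2.84% of the tested genes, and the siPrp19 samples lay close together while the NC samples spread. The means were 78.7 ± 9.51 and 63.9 ± 0.880 FPKM (SD, n = 3), 81.2% of NC, and the pairs stood at 73.1%, 81.1% and 91.8%. The log2 fold change was -0.29 with a standard error of 0.13 and an unadjusted p of 0.0618 in limma. The replicate block gave a standard error of 0.07 and, in limma, an adjusted p of 0.215, while the paired voom fit gave an adjusted p of 0.00134. Without replicate 1 of both groups the voom fit gave -0.21 and an adjusted p of 0.105 (limma), so TIMP2 was not called. That smaller fit called 261 genes in all, against 947 with all pairs.

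TIMP3 (chromosome 22, 32801701 to 32863043, plus strand) encodes an inhibitor that binds to the matrix and also blocks ADAM17. It had 0.966, 1.58 and 0.659 FPKM in NC and 0.698, 1.13 and 0.429 FPKM in siPrp19, from 60 to 128 reads and from 49 to 108 reads. Within each pair siPrp19 was lower, at 72.2%, 71.5% and 65.1% of NC, as in 13.5% of the genes with any reads, but the groups overlapped because replicate 2 was the highest and replicate 3 the lowest in both. The log2 fold change was -0.46 with a standard error of 0.45 in limma, and 0.18 with the block. Paired voom on genes with a mean of at least 10 reads gave an adjusted p of 0.0922 (limma), short of the threshold.

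TIMP4 (chromosome 3, 12153051 to 12159351, minus strand) encodes an inhibitor found mainly in heart and brain. It had 2, 5 and 10 reads in NC and 10, 8 and 8 reads in siPrp19, which were 0.0556, 0.172 and 0.306 FPKM and 0.267, 0.233 and 0.195 FPKM. The siPrp19 values lay inside the NC range, and a difference was not detectable at this depth. TIMP4 lies within the synapsin gene SYN2 on the opposite strand and shares 170 bases, 10.3% of its exons, with it. SYN2 averaged 9.38 FPKM in NC and 8.87 FPKM in siPrp19. The strand setting of the counting is not given, so how reads from the shared stretch were assigned is not known.

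**Figure D3:**
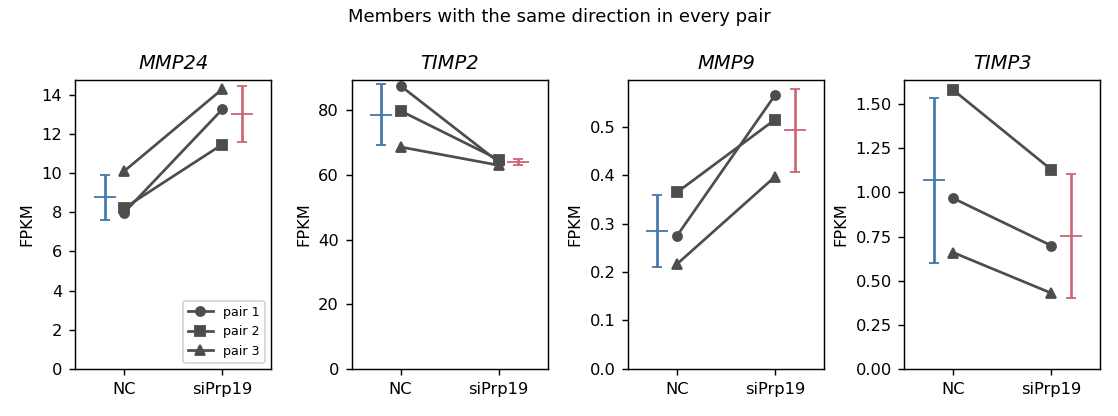
Values of the members that moved the same way in all 3 pairs, in FPKM, with lines that join NC and siPrp19 samples of the same replicate number, and the group mean ± SD (n = 3) at each side. MMP24 goes from 7.98, 8.21 and 10.1 to 13.2, 11.5 and 14.3 FPKM, and the 3 TIMP2 lines meet between 63.0 and 64.8 FPKM.

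Because TIMP2 acts in a complex with MMP14, their ratio was also read in each sample. TIMP2 stood at 2.04, 1.75 and 1.36 times MMP14 in NC and at 1.96, 1.57 and 1.23 times in siPrp19. The ratio was highest in replicate 1 and lowest in replicate 3 of both groups, and it was lower in siPrp19 in each pair. On the log2 scale it was 0.76 ± 0.30 in NC and 0.64 ± 0.34 in siPrp19 (SD, n = 3), a difference of -0.12 that was smaller than the spread between samples of a group. Within pairs the difference was -0.06, -0.16 and -0.15, with an SD of 0.05 around the mean. An exact sign-flip test of 3 pairs gave a two-sided p of 0.25, the smallest it can give. Any 3 differences of the same sign give that value, so the test adds nothing to the signs. The range between replicate numbers exceeded the group difference for 5 of the 7 tested members, all but MMP24 and TIMP2, against 91.5% of all tested genes.

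The genes whose profiles over the 6 samples were most like those of the 2 highest members were named as a description. For MMP2 they were METTL1 (Pearson r = 0.98), SECTM1 (0.98) and MYD88 (0.98), and for TIMP2 they were FBXL7, LGALSL and EFCAB7 (each 0.98). The 6 points share the replicate structure described above.

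The wider protease network around the members was read from lists of 83 related genes, of which 46 averaged 1 FPKM or more. Of these, 15 had a positive and 31 a negative log2 fold change, with a median of -0.11 against -0.004 over all tested genes. The limma fits without and with the block called none of them. In the paired voom fit 1 of 42 rose and 10 fell, beside 2.61% and 4.3% of all genes in that fit. Without replicate 1 of both groups 6 related genes were called in all, without replicate 2, 8, and without replicate 3, 14. These counts describe the lists, and no test of a list was made. The lists were chosen with earlier results of these data known, so their shares beside all genes are not evidence of a shared fall.

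**Figure D4:**
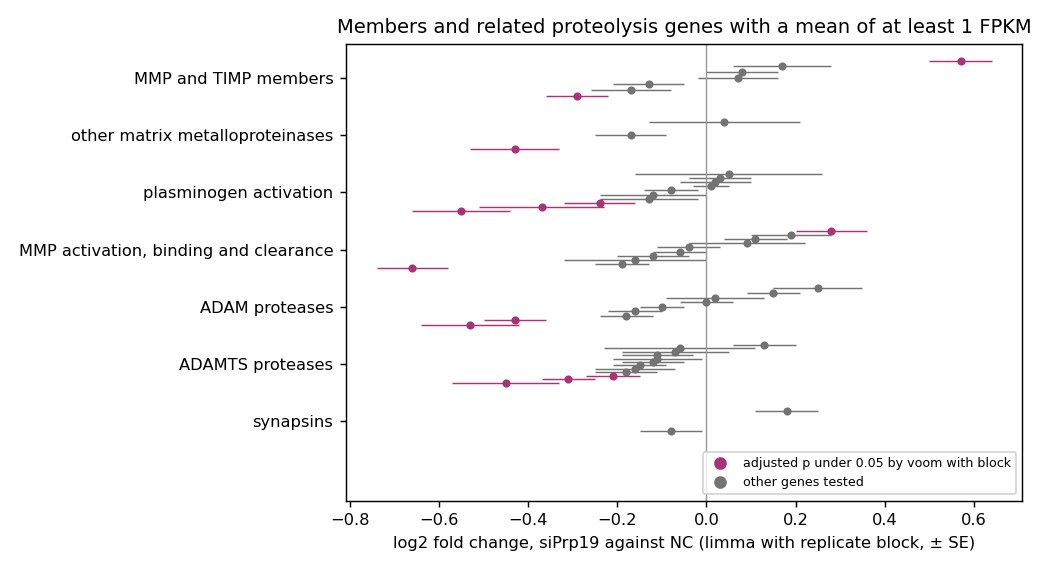
Log2 fold change from NC to siPrp19 (limma with the replicate block, bars for the standard error) of the tested members and of the tested genes in each related list, with purple points for genes called by the paired voom fit. The ADAMTS list has 11 of 12 genes below 0, and its median is -0.136, against -0.004 over all tested genes. Paired voom called 3 of the 12 lower, beside 4.3% of all genes. The list was chosen with earlier results of these data known and was not tested.

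Of 17 other MMPs, 3 were expressed and 3 were listed at 0 in all samples. MMP11, stromelysin 3, was the highest with a mean of 20.4 FPKM, and MMP17 stood at 7.40 FPKM, both with overlapping groups. MMP1, interstitial collagenase, fell in the paired voom fit. It had 8.08, 11.8 and 15.3 FPKM in NC and 4.94, 9.23 and 13.0 FPKM in siPrp19, so its groups overlapped. The log2 fold change was -0.43 with a standard error of 0.39 in limma without the block. In the paired voom fit it was -0.39 with a standard error of 0.1 and an adjusted p of 0.013 (limma).

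Plasmin is another matrix protease and an activator of several proMMPs. In the paired voom fit 3 of the 9 genes of this system fell, PLAT and SERPINE2 among them, beside 4.3% of all genes. PLAT, the tissue plasminogen activator, was lower in every siPrp19 sample, at 14.9 ± 1.35 FPKM in NC and 12.5 ± 0.392 in siPrp19 (SD, n = 3, adjusted p = 0.0194 in limma voom). SERPINE2, an inhibitor of plasminogen activators and thrombin, stood at 3.55 FPKM in NC and 2.83 FPKM in siPrp19. Its groups overlapped, and its adjusted p was 0.0255 in limma voom. The plasminogen receptors ENO1 and ANXA2, the most abundant of the list at means of 1682 and 63.3 FPKM, had overlapping groups and did not pass.

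Among genes that activate, bind or clear MMPs, FURIN, the convertase that cuts the propeptide of membrane-type MMPs, rose from 10.3 ± 1.55 to 12.7 ± 3.48 FPKM, and THBS1, a matrix glycoprotein that binds MMP2 and MMP9, fell from 17.7 ± 3.59 to 11.3 ± 2.96 FPKM (SD, n = 3; limma voom with pairs, adjusted p = 0.0107 and 1.72e-07). THBS1 had 20.7, 18.7 and 13.7 FPKM in NC and 12.3, 13.7 and 7.99 FPKM in siPrp19, and its groups did not overlap only by a narrow gap. BSG, which induces MMPs in neighbouring cells, was the highest of this list at 203 FPKM and, like LRP1, an endocytic receptor for MMPs at 17.1 FPKM, did not pass the test.

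Of the ADAM proteases, which shed proteins from the cell surface, ADAM12 and ADAM23 fell in the paired voom fit. ADAM12 went from 5.33, 3.60 and 7.63 FPKM to 3.09, 2.48 and 6.19 FPKM, and ADAM23 from 7.54, 4.37 and 10.7 FPKM to 5.16, 3.49 and 7.88 FPKM. Both had overlapping groups, and their adjusted p was 1.55e-04 and 2.58e-04 (limma voom). The most abundant of that list, ADAM9, ADAM22 and ADAM15, averaged 15.2, 14.6 and 11.8 FPKM and did not pass. Of the ADAMTS proteases, which process procollagen and proteoglycans, ADAMTS2, ADAMTS5 and ADAMTS19 fell in the same fit (limma voom adjusted p = 0.0166, 0.00311 and 0.00313). ADAMTS5 was without overlap at 2.40, 2.52 and 2.18 against 1.51, 1.85 and 1.77 FPKM. ADAMTS2, the highest of its list, went from 26.6 ± 8.93 to 22.8 ± 6.92 FPKM and ADAMTS19 from 13.5 ± 1.69 to 11.0 ± 1.99 FPKM (SD, n = 3), both with overlapping groups. ADAMTS1, at a mean of 15.7 FPKM, did not pass. TIMP1 and TIMP3 lie inside the synapsin genes SYN1 and SYN3 on the opposite strand with no shared exon bases. Neither SYN1 (log2 fold change 0.18) nor SYN2 passed a test. SYN3 averaged 0.339 FPKM and was higher in all 3 pairs, at 127%, 164% and 136% of NC. It did not pass paired voom at 10 reads either (limma adjusted p = 0.353).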

How the data were processed

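RNA of 3 NC and 3 siPrp19 samples was read from 1 deposited FPKM table per sample, which the authors made with HISAT2 2.0.5 and featureCounts 1.5.0-p3 on hg38 per the labels; the annotation and strand setting are not given in the sources used here. Symbols, exon lengths and coordinates came from GENCODE 29 (58039 of 58302 genes matched). The 14462 genes that averaged 1 FPKM or more were tested with limma 3.58.1 (R 4.3.3; lmFit, eBayes with trend) on log2(FPKM + 0.1), with Benjamini-Hochberg adjustment; fold changes of low genes are understated on this scale. MMP9, TIMP3 and TIMP4 lay under that filter and were taken from the fit of 37676 genes with any reads. Reads were recovered as FPKM times exon length divided by the step of 1 read (whole within 0.05 for 96.1% of genes above 0 found in GENCODE 29), and voom was run on them as an alternative.

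Samples with the same number were paired: deviations from the group means correlated at 0.381 to 0.639 in the 3 same-numbered pairs and at -0.532 to 0.045 in the 6 others. Same-numbered samples share this number in the labels, and nothing more is stated of it. The limma fits were also run on simulated data with known changes and the same replicate deviations in both groups. That run did not cover voom, and its outcome is not given here. The members and related lists were chosen with earlier results of these data known. Named related genes were the 3 with the highest mean of each list and all that a fit called, except 1 gene of the plasminogen list that is counted but not reported here. The study's methods call the replicates biological; no source used here says whether they were separate cultures, so p-values measure the spread between these samples. The voom fits at 10 reads and without single replicate numbers were chosen after seeing the data, and the sign-flip test of the TIMP2 to MMP14 ratio was not planned. Protein sequences were not used here.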

Additional observations from a re-analysis of the deposited data

How the results depend on the processing

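The number of genes called was 0 in limma and 1 with eBayes without trend and robust, but 947 in voom with the replicate block, 124 in the blocked limma fit at 5 FPKM and 1010 in blocked voom at 10 reads. Members called numbered 0, and in the 3 blocked alternatives 2, 1 and 2; related genes called numbered 0, and 11, 2 and 11. The blocked limma fit at 1 FPKM called 0 genes, 2265 at an unadjusted p under 0.05. The cause of these gaps was not tested. Leaving out 1 sample called 0 genes each time in limma without the block. Leaving out 1 replicate number of both groups in blocked voom called 261, 618 and 1244 genes, 1, 2 and 4 members and 6, 8 and 14 related genes without replicates 1, 2 and 3: without replicate 1 TIMP2 lost its call, and without replicate 3 MMP2 and MMP14 gained one. The direction reversed for MMP15 without NC replicate 2 (-0.18) and siPrp19 replicate 3 (-0.22), for TIMP1 without NC replicate 3 (-0.07), siPrp19 replicate 2 (-0.08) and in blocked voom without replicate 3 (-0.03), for TIMP4 without NC replicate 1 (-0.01) and for MMP16 in blocked voom without replicate 2 (-0.0022). None of these passed a test, and leaving out other samples took MMP15 up to 0.62, TIMP1 to 0.28 and TIMP4 to 0.68. MMP24 stayed positive (0.49 to 0.67) and TIMP2 negative (-0.39 to -0.21) when single samples were left out, and both kept their sign under a pseudocount of 1, TPM and quantile scaling. The TIMP2 to MMP14 difference ranged from -0.29 to 0.05. The 5 FPKM filter gives no value for MMP15, MMP9, TIMP3 and TIMP4, nor does voom at 1 FPKM for the last 3. Depth limits MMP9 and TIMP4, with at most 30 reads a sample.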

Other observations

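Of the other matrix metalloproteinases, MMP8, MMP26 and MMP27 were listed at 0 in all 6 samples.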
